A study of Caenorhabditis elegans with 9 samples.

Results

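The genes described here were 6 large chaperone genes of *C. elegans* and *hsf-1*, taken as a list by name: the cytosolic *hsp-1*, *hsp-70*, *hsp-90* and *hsp-110*, the mitochondrial *hsp-6* and *hsp-60*, and the transcription factor gene *hsf-1*. All 7 were found by gene identifier among the 14218 genes with values and all 7 passed the filter on low levels, so that they are 7 of the 11287 genes tested. Poly(A) RNA of whole L4 animals was sequenced in 9 libraries, 3 for each of 3 genotypes. ATF-4OE carries the integrated array *ldIs119*, in which the *atf-4* promoter drives genomic ATF-4 fused to GFP beside the dominant marker *rol-6*, and it is a single integrated line. The second genotype was the deletion mutant *atf-4(tm4397)* (strain LD1325), which carries no transgene, and the third was wild type (WT, strain N2). All 3 genotypes grew on OP50 bacteria at 20 °C without drug or heat treatment, and every library came from a synchronized population of roughly 20000 worms, with the genotypes of 1 replicate raised side by side.

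Chaperones of the HSP70 family bind unfolded segments of proteins in a cycle driven by ATP. HSP110 proteins release their nucleotide, and HSP90 proteins act later on clients such as kinases and receptors. In mitochondria, the HSP70 protein HSP-6 helps to pull proteins through the inner membrane, and the chaperonin HSP-60 folds them in a closed chamber with a small co-chaperonin. HSF-1 is the transcription factor of the heat shock response, while *hsp-6* and *hsp-60* are the classical reporter genes of the mitochondrial unfolded protein response in worms. ATF-4 is a bZIP transcription factor that acts in the integrated stress response.

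Levels are given in parts of 1000000 (ppm), a measure per exon length in which every library sums to 1000000. Differences are log2 fold changes of level plus 1 from limma, with their standard error (SE), and a gene passed the test at a Benjamini-Hochberg adjusted p under 0.1 over the 11287 genes. The deposited sheets disagree on which library is which. Of the 9 libraries, 6 carry another genotype in the sheet of RPKM values than in the sheet of centred and scaled values, and names from the centred and scaled values were used throughout. Under these names *atf-4* was at 5289, 4184 and 6845 ppm in ATF-4OE, at 3.81, 3.69 and 9.31 ppm in *atf-4(tm4397)*, and at 200, 168 and 215 ppm in WT. *rol-6* was at 3019 to 4448 ppm in ATF-4OE against 572 to 962 ppm in WT. In *atf-4(tm4397)* it was at 750, 655 and 1379 ppm, so 1 library without the array exceeded every WT library. The libraries held about 23.8 to 35.1 M reads (median 27.5 M). Markers of other tissues moved with the genotypes. The summed level of 8 body wall muscle genes was 7286 to 8731 ppm in ATF-4OE, 5460 to 5771 ppm in the mutant and 5243 to 6181 ppm in WT, and that of 8 neuronal genes was 682 to 841 ppm in ATF-4OE, 455 to 531 ppm in the mutant and 467 to 517 ppm in WT. The sum of 7 intestinal genes was 2146 to 2934 ppm in ATF-4OE, 2686 to 4003 ppm in the mutant and 3949 to 4491 ppm in WT, and that of 11 germline genes was 129 to 136 ppm in ATF-4OE, 160 to 531 ppm in the mutant and 201 to 233 ppm in WT. In whole animals, fewer cells of a type and less RNA per cell cannot be told apart.

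In brief, *hsp-90* was the member that rose in ATF-4OE relative to WT, to 1.26 times its level, and *hsp-6* and *hsp-60* were the members that were lower in ATF-4OE than in *atf-4(tm4397)*, at 0.669 and 0.660 times the mutant level. The heat-inducible *hsp-70* differed more between libraries of 1 genotype than between genotype means, as did *hsp-110* in ATF-4OE and the mutant but not in WT. No member passed between *atf-4(tm4397)* and WT, although *hsp-90*, *hsp-6* and *hsp-60* were each above all WT libraries in all mutant libraries. Such outcomes also occurred among genes at large. Of all genes, 22.1% passed as higher in ATF-4OE than in WT and 13.8% as lower in ATF-4OE than in the mutant. All mutant libraries lay above all WT libraries for 6.07%. *hsf-1* did not pass in any comparison.

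The 7 genes covered a wide range of levels. Over the 9 libraries, *hsp-1* averaged 1789 ppm, *hsp-90* 1147 ppm, *hsp-60* 632 ppm, *hsp-6* 437 ppm, *hsp-110* 380 ppm, *hsp-70* 88.2 ppm and *hsf-1* 16.8 ppm. By mean level *hsp-1* stood at percentile 99.0 of the tested genes and *hsp-90* at 98.6, while *hsp-70* stood at 86.5 and *hsf-1* at 48.0. The first 3 and the last 2 genes held the same rank in 9 of 9 libraries. *hsp-6* and *hsp-110* were neighbours whose order was not fixed, since *hsp-110* exceeded *hsp-6* in 2 libraries, replicate 3 of ATF-4OE and replicate 3 of WT. Steps in the RPKM values put about 64045 to 100827 reads per library on *hsp-1* and 710 to 1251 on *hsf-1*, so that counting error was about 3.8% for *hsf-1* at its lowest and below that for the other members.

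**Figure D1:**
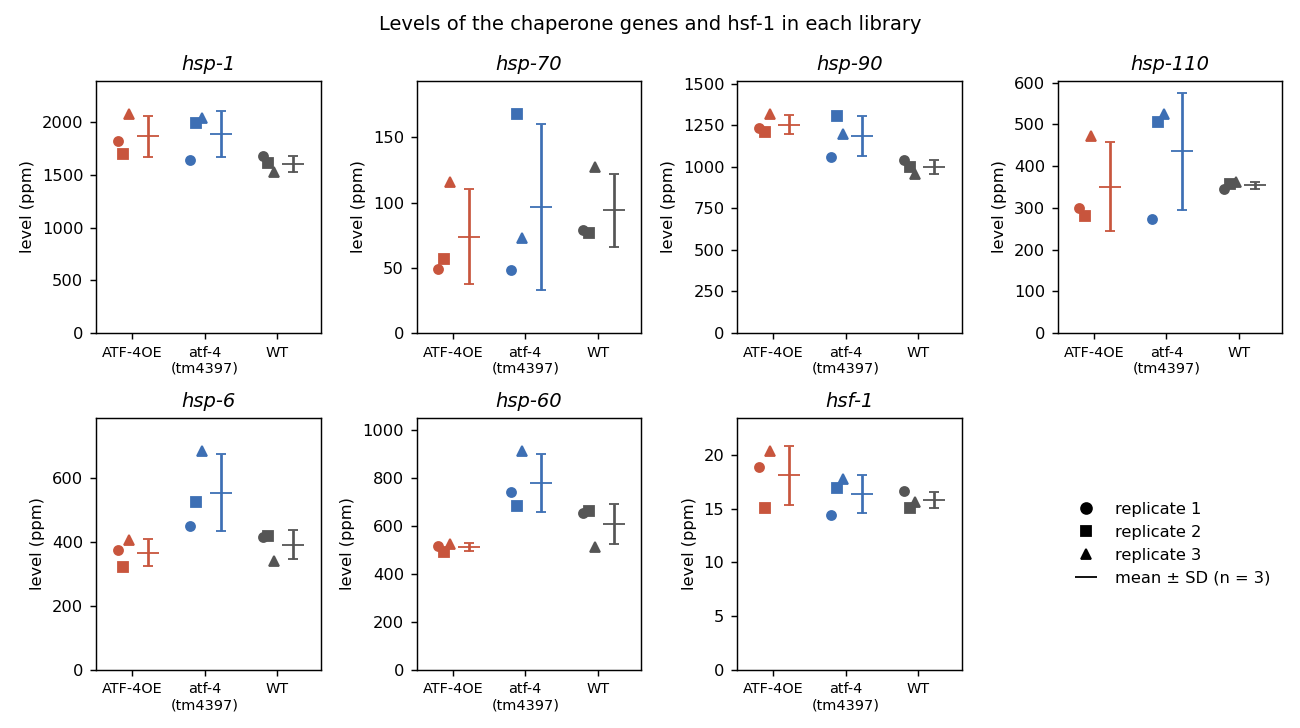
Level of each gene in ppm (linear axes from 0) for the 3 libraries of ATF-4OE, *atf-4(tm4397)* and WT, with symbols for the replicate number and bars for mean ± SD (n = 3). The 3 ATF-4OE libraries of *hsp-90* lie above the 3 WT libraries, those of *hsp-6* and *hsp-60* lie below the 3 mutant libraries, and *hsp-70* is spread within every genotype.

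*hsp-90* encodes the cytosolic HSP90 and lies on chromosome V (14684918 to 14688545, plus strand, WBcel235). Its level was 1236, 1209 and 1319 ppm in ATF-4OE against 1042, 999 and 955 ppm in WT, and the groups did not overlap. The log2 fold change was 0.33 (SE 0.09, n = 3 each) with an adjusted p of 0.027 by limma. In *atf-4(tm4397)* it was at 1062, 1304 and 1196 ppm, again above every WT library, with a log2 difference of 0.25 from WT (SE 0.09) that did not pass (adjusted p = 0.468). ATF-4OE and the mutant were not told apart (log2 0.08, adjusted p = 0.547). The call in ATF-4OE held in each of 9 fits that left out 1 library, with adjusted p of 0.0155 to 0.0993. It did not hold on the centred and scaled values without a log (adjusted p = 0.138). Of all genes, 22.1% passed as higher and 14.4% as lower in ATF-4OE relative to WT, and 25.1% had all ATF-4OE libraries above all WT libraries. Of the 7 members, 1 passed as higher, none passed as lower, and 2 lay above WT in all libraries, which is close to those shares of all genes. The muscle and neuronal sums given above were higher in the same libraries, and their part in the value of *hsp-90* was not tested.

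*hsp-1* encodes the constitutive cytosolic HSP70 and lies on chromosome IV (17278959 to 17281330, plus strand). It was at 1822, 1701 and 2081 ppm in ATF-4OE and at 1679, 1615 and 1531 ppm in WT, which did not overlap. The log2 difference of 0.21 (SE 0.11) did not pass (adjusted p = 0.181), and it passed only where libraries were weighted by their estimated quality (0.23, adjusted p = 0.0615). The mutant libraries were at 1640, 1994 and 2041 ppm, and 1 of them fell within the WT range. The difference from WT was 0.23 (adjusted p = 0.481). *hsp-1* and *hsp-90* kept nearly 1 proportion to each other, since the ratio of their levels ranged from 1.41 to 1.71 over the 9 libraries, whereas that of *hsp-1* to *hsp-70* ranged from 11.8 to 36.9. The genes most like *hsp-1* were *atf-7* (r = 0.961), *K07E3.1* (r = 0.960) and *dnj-5* (r = 0.956). For *hsp-90* they were *lst-1* (r = 0.957), *21ur-11219* (r = 0.946) and *F08G2.4* (r = 0.944).

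*hsp-70* is a heat-inducible cytosolic HSP70 gene on chromosome I (9320325 to 9322519, minus strand). It was at 49.3, 57.0 and 116 ppm in ATF-4OE, at 48.0, 168 and 72.9 ppm in the mutant, and at 78.8, 76.8 and 127 ppm in WT. Every genotype had 1 library well above its other two, and the ranges of the 3 genotypes overlapped. The highest library exceeded the lowest 2.35-fold in ATF-4OE, 3.51-fold in the mutant and 1.65-fold in WT. The SD of the log2 level within genotypes was 0.69, larger than for 94.0% of the tested genes, whose median was 0.21. The differences were therefore imprecise, with log2 values of -0.40 for ATF-4OE and -0.12 for the mutant, each against WT, and an SE of 0.46. The difference between ATF-4OE and the mutant was -0.28 (adjusted p = 0.69), and without mutant replicate 2 it was 0.22.

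The level of *hsp-70* moved with that of other heat-inducible genes. The gene most like it over the 9 libraries was *hsp-16.2*, a small heat shock protein gene and a classical HSF-1 target, with a Pearson correlation of 0.957. Next came *F52G3.6* (0.949) and *scp-1* (0.934), which are not in the list of heat-inducible genes, so the likeness was not particular to that list. *hsp-16.2* was at 134, 200 and 311 ppm in ATF-4OE, at 135, 381 and 222 ppm in the mutant, and at 190, 227 and 300 ppm in WT. Its 3 highest libraries were the same as those of *hsp-70*, namely mutant replicate 2, WT replicate 3 and ATF-4OE replicate 3. The sheet of most regulated genes exchanges the numbers of mutant replicates 2 and 3, and by its numbers all 3 libraries are replicate 3. With those numbers as a block, *hsp-70* in ATF-4OE against WT had an adjusted p of 0.161 by limma, against 0.544 without a block. The part of shared growth in these levels was not tested. The correlation with *hsp-70* was 0.81 for *hsp-16.41*, 0.77 for *F44E5.4* and 0.79 for *F44E5.5*. *F44E5.4* and *F44E5.5* are adjacent, near-identical genes of the HSP70 family, and how their reads were split between them was not tested. These correlations describe 9 libraries that share genotype and growth, and carry no test. None of these 4 heat-inducible genes, all that were tested of the 8 in their list, passed in any comparison. Replicate 1 of ATF-4OE and of the mutant was the lowest of its genotype for all of them, as for *hsp-70*. Among the 3 libraries with the highest *hsp-70*, the summed level of 9 sperm genes was 11.6 ppm in ATF-4OE replicate 3, 131 ppm in mutant replicate 2 and 75.9 ppm in WT replicate 3, and 5 of those sperm genes were at 0 in at least 1 library.

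**Figure D2:**
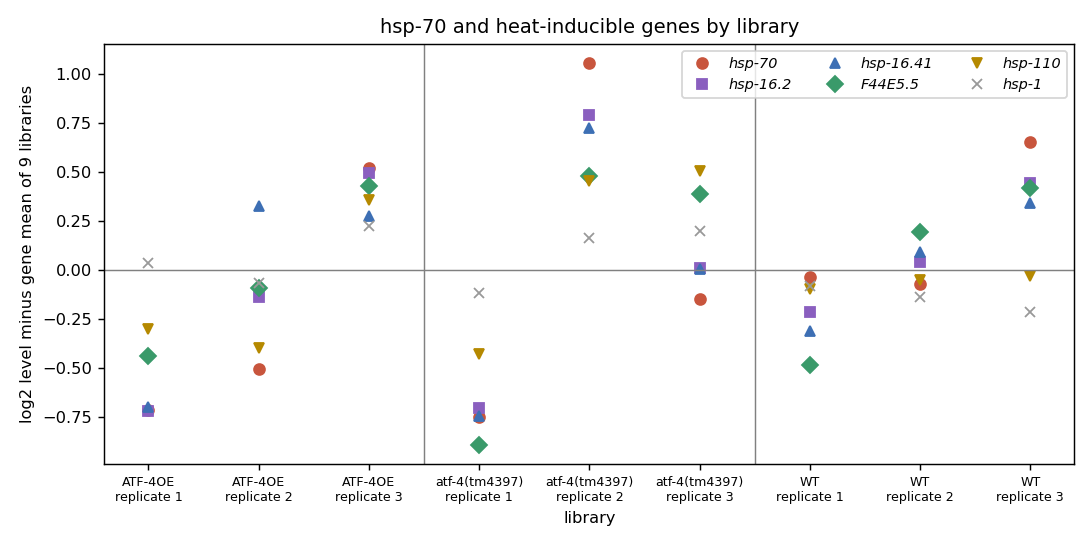
Log2 level of *hsp-70*, 4 other genes that heat or protein stress can induce or that assist HSP70, and *hsp-1*, each minus its own mean over 9 libraries, for every library. Mutant replicate 2, WT replicate 3 and ATF-4OE replicate 3 have the highest *hsp-70* and *hsp-16.2*, whereas *hsp-1* varies little.

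*hsp-110*, the nucleotide exchange partner of HSP70 (chromosome III, 8443910 to 8446909, minus strand), was at 300, 280 and 473 ppm in ATF-4OE, at 274, 506 and 525 ppm in the mutant, and at 346, 356 and 362 ppm in WT. The 3 WT libraries were close together, while those of the other genotypes lay on both sides of them. Its log2 difference was -0.05 in ATF-4OE and 0.24 in the mutant, each against WT with an SE of 0.26, and neither passed (adjusted p = 0.896 and 0.743). Between ATF-4OE and the mutant it was -0.29 (adjusted p = 0.463), and without mutant replicate 1 it was -0.59 and passed (adjusted p = 0.0641). *hsp-110* deviated from its genotype means with *hsp-1* (r = 0.93), and less closely with *hsp-70* (r = 0.77). Its most similar genes were *gap-3*, *gtf-2F1* and *pek-1*, with correlations of 0.957 to 0.949.

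The mitochondrial members separated ATF-4OE from the mutant. *hsp-6* encodes the mitochondrial HSP70 and lies on chromosome V (4824124 to 4826760, minus strand). It was at 374, 321 and 405 ppm in ATF-4OE and at 450, 526 and 686 ppm in *atf-4(tm4397)*, which did not overlap. The log2 fold change was -0.58 (SE 0.17, n = 3 each), with an adjusted p of 0.0324 by limma. WT was at 416, 419 and 339 ppm. ATF-4OE overlapped WT (log2 -0.09, adjusted p = 0.7), and all mutant libraries lay above WT with a log2 difference of 0.49 (SE 0.17) that did not pass (adjusted p = 0.461). Without ATF-4OE replicate 2 the difference of -0.49 between ATF-4OE and the mutant stood at an adjusted p of 0.1 and did not pass.

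*hsp-60* encodes the mitochondrial chaperonin and lies on chromosome III (1619742 to 1625803, plus strand). It was at 514, 491 and 524 ppm in ATF-4OE against 741, 683 and 913 ppm in *atf-4(tm4397)*. The groups did not overlap, and the log2 fold change of -0.60 (SE 0.13) passed with an adjusted p of 0.0126 by limma. WT was at 652, 661 and 513 ppm, and its lowest library fell within the ATF-4OE range. The log2 difference of -0.25 between ATF-4OE and WT did not pass (adjusted p = 0.204), and without WT replicate 3 the log2 value was -0.36 and passed (adjusted p = 0.0934). The mutant lay above all WT libraries, with a log2 difference of 0.35 (SE 0.13) that did not pass (adjusted p = 0.468). The call between ATF-4OE and the mutant held under 18 of 18 alternatives that kept the library names, with adjusted p of 0.00946 to 0.0476.

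Together *hsp-6* and *hsp-60* made up 888, 812 and 929 ppm in ATF-4OE, 1191, 1209 and 1598 ppm in *atf-4(tm4397)*, and 1068, 1080 and 851 ppm in WT. As a share of the summed level of the 4 cytosolic members this was 26.1, 25.0 and 23.3% in ATF-4OE, 39.4, 30.4 and 41.7% in the mutant, and 33.9, 35.4 and 28.6% in WT. The share was lower in every ATF-4OE library than in any library of the other genotypes. Against WT this rested also on the cytosolic sum, at 3248 to 3989 ppm in ATF-4OE and 2974 to 3146 ppm in WT. The sum of *hsp-6* and *hsp-60* itself overlapped between ATF-4OE and WT. Their levels varied together over the 9 libraries, with a correlation of 0.92, and with one of 0.82 once genotype means were removed, and the ratio of *hsp-60* to *hsp-6* ranged from 1.29 to 1.65.

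Of all genes, 13.8% passed as lower and 19.8% as higher in ATF-4OE relative to the mutant, and 16.8% lay below the mutant in all libraries. Of the 7 members, 2 passed as lower, none passed as higher, and 2 lay below the mutant in all libraries. The median log2 difference was -0.28 over the members and -0.03 over all genes, but the former is the value of *hsp-70* alone, with an SE of 0.46. Between the mutant and WT only 0.0532% of genes passed in either direction (6 genes, and 1176 at an unadjusted p under 0.05), and no member was among them, while 3 members had an unadjusted p under 0.05 by limma. All mutant libraries lay above all WT libraries for 6.07% of genes and for 3 of the 7 members. The median log2 difference was 0.24 over the 7 members and 0.02 over all genes, where the former is the value of *hsp-110* alone, with an SE of 0.26. The 3 comparisons share libraries in pairs and are not independent of each other.

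**Figure D3:**
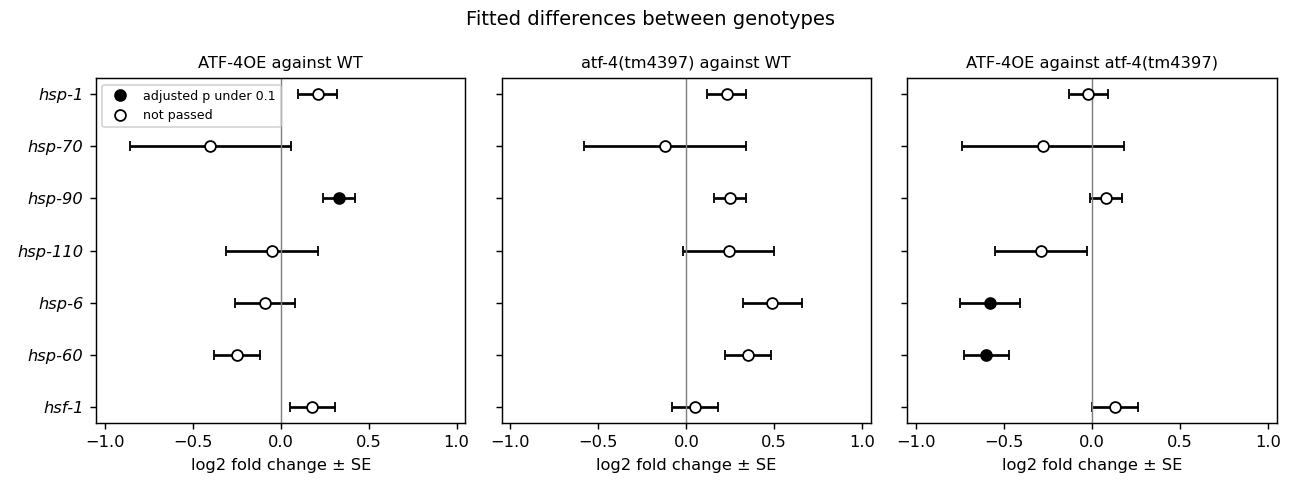
Log2 fold change ± SE of the 7 genes in the 3 comparisons, with filled points for an adjusted p under 0.1. Filled points are *hsp-90* for ATF-4OE against WT at 0.33, and *hsp-6* and *hsp-60* for ATF-4OE against *atf-4(tm4397)* at -0.58 and -0.60.

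Other mitochondrial folding and quality control genes were examined as a list of 14 names, of which 12 matched a gene symbol, and all 12 were tested. The list was chosen with earlier results of these data known, so its counts describe these genes and are no independent support. Relative to the mutant, 5 of the 12 were lower in ATF-4OE and none was higher, beside 13.8% and 19.8% of all genes, with a median log2 difference of -0.31 beside -0.03 over all genes. With the replicate number as a block 2 of the 12 were lower, and leaving out 1 library gave 2 to 5, with 2 in each case without ATF-4OE replicate 1, ATF-4OE replicate 3 or mutant replicate 3. The protease gene *spg-7* was at 82.1, 67.5 and 76.8 ppm in ATF-4OE against 108, 110 and 130 ppm in the mutant (log2 -0.62, adjusted p = 0.00968 by limma). *C34C12.8* was at 101, 100 and 85.6 ppm in ATF-4OE against 145, 117 and 141 ppm in the mutant (-0.49, adjusted p = 0.0252). Both of these calls held under 18 of 18 alternatives that kept the library names. The other three, named after their values were seen, were the prohibitin genes *phb-1* (-0.41, adjusted p = 0.056) and *phb-2* (-0.36, adjusted p = 0.076) and the DnaJ gene *dnj-10* (-0.32, adjusted p = 0.0821), and with the block these had adjusted p of 0.11, 0.137 and 0.15. *hsp-75*, the mitochondrial HSP90 gene and a member of another list, was lower in ATF-4OE than in the mutant (50.8 against 73.2 ppm on average, -0.51, adjusted p = 0.0146) and lower than in WT (65.9 ppm, -0.37, adjusted p = 0.0476). The call against the mutant held when each library was left out, and that against WT was lost without ATF-4OE replicate 2 or 3 or WT replicate 1 or 2, with an adjusted p of up to 0.136. Relative to WT, *C34C12.8* was the single gene of the 12 that was lower in ATF-4OE (-0.34, adjusted p = 0.0774, and 0.113 with the block), and none was higher.

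Not all of these genes passed. *Y22D7AL.10*, which starts 813 bases from *hsp-60* on the other strand, was at 589, 724 and 610 ppm in ATF-4OE and at 863, 693 and 829 ppm in the mutant, where the groups overlapped and the log2 value of -0.31 missed the threshold (adjusted p = 0.104). That value equals the median of the 12 genes. The protease subunit gene *clpp-1*, also named after its values were seen, averaged 37.4 ppm in both genotypes. Of 5 tested regulators of the mitochondrial stress response, *atfs-1*, which encodes the transcription factor of the mitochondrial unfolded protein response, was higher in ATF-4OE than in WT (61.7, 49.9 and 62.0 ppm against 41.7, 45.5 and 35.8 ppm, log2 0.49, adjusted p = 0.0671). With the block its adjusted p was 0.109, and the call was also lost without ATF-4OE replicate 1 or 3 or WT replicate 1 or 3, with an adjusted p of up to 0.211. It averaged 57.9 ppm in ATF-4OE and 58.5 ppm in the mutant (log2 0.00, adjusted p = 0.99), and no other regulator passed.

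**Figure D4:**
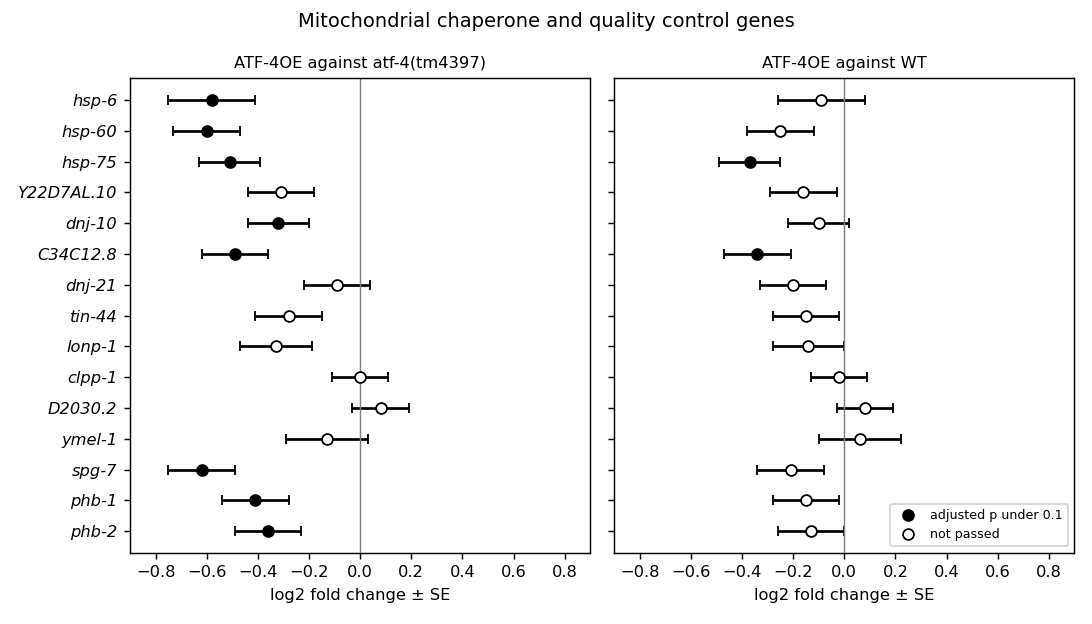
Log2 fold change ± SE of *hsp-6*, *hsp-60*, *hsp-75* and the 12 tested genes for mitochondrial folding, import and proteolysis, for ATF-4OE against *atf-4(tm4397)* and against WT. Filled points passed at an adjusted p under 0.1, which were 8 genes against the mutant and, against WT, *hsp-75* and *C34C12.8*.

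The genes whose levels were most like those of *hsp-60* over the 9 libraries were the mitochondrial translation elongation factor genes *gfm-1* (r = 0.988) and *tufm-1* (r = 0.985) and *cox-15*, for heme A synthesis (r = 0.975). For *hsp-6* they were *mlt-10*, a gene of the moulting cycle (r = 0.984), and *fubl-2* and *mcm-7* (r = 0.979 each). The summed level of 10 hypodermal and moulting genes was 2647, 1809 and 2402 ppm in ATF-4OE, 2618, 2495 and 3440 ppm in the mutant, and 2253, 1268 and 1478 ppm in WT. These 10 genes include *mlt-10*. Mutant replicate 3, where *hsp-6* was highest, also had the highest sum. Within ATF-4OE the sum was highest in replicate 1 and *hsp-6* in replicate 3 (405 ppm). Within WT the sum was highest in replicate 1 and *hsp-6* in replicate 2 (419 ppm). Of 11 germline genes, 9 were lower in ATF-4OE than in the mutant, beside 13.8% of all genes. Their sum was 129, 134 and 136 ppm in ATF-4OE and 160, 531 and 331 ppm in the mutant. The part of moulting stage and germline content in the 2 differences was not tested.

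Partners of the cytosolic members were called about as often as genes at large. Of 15 tested co-chaperone genes of HSP70 and HSP90, 3 were higher in ATF-4OE than in WT and none was lower, beside 22.1% and 14.4% of all genes, with a median log2 difference of 0.17 where that of all genes was 0.01. With the block 1 of the 15 was higher, and none was without ATF-4OE replicate 1 or without WT replicate 3. *unc-45*, a myosin-directed partner of HSP90, was at 42.5, 37.4 and 39.9 ppm in ATF-4OE and at 33.9, 32.8 and 31.9 ppm in WT (0.27, adjusted p = 0.052 by limma, and 0.109 with the block). The HSP90 activator gene *ahsa-1* and the DnaJ gene *dnj-12* each rose by a log2 of 0.26 (adjusted p = 0.0621 and 0.0597, and 0.0801 and 0.108 with the block). *unc-45* was the only one of them that was also higher than in the mutant (0.23, adjusted p = 0.0946), and this call held in 5 of 18 alternatives and not with the block (adjusted p = 0.172).

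Of 16 genes for the TRiC chaperonin, prefoldin and the nascent chain complex, 4 were higher in ATF-4OE than in WT and none was lower, near the 22.1% of all genes that were higher, with a median of 0.20. With the block none of the 16 passed as higher (0 genes), and leaving out 1 library gave 0 to 6, with 0 without ATF-4OE replicate 1, ATF-4OE replicate 3 or WT replicate 3. All 4 encode TRiC subunits. *cct-1* averaged 332 ppm in ATF-4OE and 274 ppm in WT (0.28, adjusted p = 0.0602), and *cct-3* (0.26), *cct-7* (0.26) and *cct-4* (0.23) passed with adjusted p of 0.0703, 0.0614 and 0.0965. With the block the adjusted p of these 4 genes was 0.118 to 0.166. None of the 16 passed between ATF-4OE and the mutant. Among the 10 other HSP70 and HSP90 family genes, *hsp-75* was lower than in WT, as given above, and *F11F1.1* was higher, at 7.31, 5.10 and 6.45 ppm in ATF-4OE against 2.83, 2.19 and 1.22 ppm in WT (1.27, adjusted p = 0.00718). *F11F1.1* was also higher than in the mutant (0.83, adjusted p = 0.0422), a call that was lost without ATF-4OE replicate 1 or 3 or mutant replicate 2, with an adjusted p of up to 0.155. It reached the filter of 5 ppm only in ATF-4OE libraries, with at most 3.72 ppm in the mutant. The gene thus entered both tests through the group where it was high, and neither call is independent of the filter. No gene of any chaperone list passed between the mutant and WT.

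*hsf-1* lies on chromosome I (11953507 to 11963085, minus strand) and had the lowest level of the members. It was at 18.9, 15.1 and 20.4 ppm in ATF-4OE, at 14.4, 16.9 and 17.8 ppm in the mutant, and at 16.6, 15.1 and 15.6 ppm in WT, with overlap between all genotypes. Its log2 difference was 0.18 in ATF-4OE (SE 0.13, adjusted p = 0.335) and 0.05 in the mutant (adjusted p = 0.913), each against WT. The value for ATF-4OE was 0.30 and passed where ATF-4OE replicate 2 was left out (adjusted p = 0.0992). None of the 3 tested genes for HSF-1 regulators passed in any comparison. *hsf-1* levels correlated with those of *hsp-1* (r = 0.79) and less with those of *hsp-70* (r = 0.24). The most similar genes were *hda-4*, *F53H2.3* and *B0546.3*, with correlations of 0.975 to 0.970.

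The members differed in how much they varied between libraries of 1 genotype. *hsp-90* had the smallest SD of log2 level within genotypes, 0.10, followed by 0.14 for *hsp-1*, 0.16 for *hsf-1*, 0.17 for *hsp-60*, 0.23 for *hsp-6*, 0.38 for *hsp-110* and 0.69 for *hsp-70*. *hsp-90* varied less than most genes (percentile 10.8), and *hsp-110* more than most (percentile 82.0). Correlations of levels were high for *hsp-1* with *hsp-90* (0.88) and for *hsp-6* with *hsp-60* (0.92), and near 0 for *hsp-60* with *hsp-70* (-0.05) and with *hsp-90* (-0.07). After genotype means were removed, *hsp-60* and *hsp-70* had a correlation of -0.42.

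**Figure D5:**
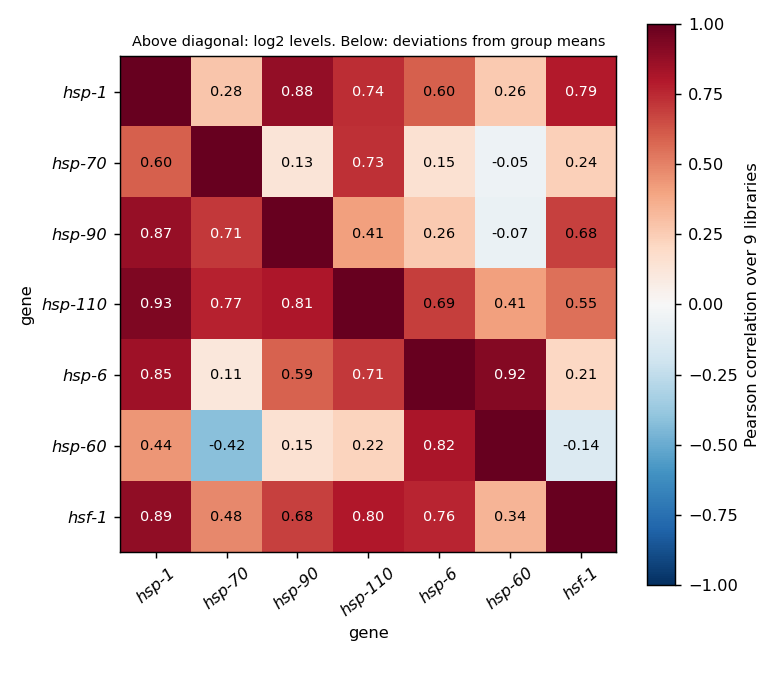
Pearson correlations between the 7 genes over 9 libraries, for log2 levels above the diagonal and for deviations from genotype means below it. *hsp-1* with *hsp-90* and *hsp-6* with *hsp-60* are high on both sides (0.88 and 0.87, 0.92 and 0.82), and *hsp-60* with *hsp-70* is -0.05 above and -0.42 below.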

How the data were processed

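By the paper and the submitters' processing notes, the authors mapped single reads of 50 bp to WBcel235 (STAR 2.4.0j), made gene counts (featureCounts) and scaled these to RPKM. The deposited centred and scaled values are scores: each library's RPKM minus its mean, divided by its SD. The RPKM sheet the authors deposited gives 6 of 9 libraries another genotype name, so it served for depth (about 23.8 to 35.1 M reads) and 1 alternative. Each library's scores were shifted to a lowest value of 0 and scaled to sum to 1000000, a constant multiple of RPKM within the library. Low RPKM values gave whole reads for 36.0 to 44.6% of values within 0.02 read, so no count model was used. The scores of the 39 most regulated genes (used for names only) and the p-values deposited by the authors for annotation terms (not used), entered no test.

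A gene was tested if it reached 5 ppm in 1 library or more. limma 3.58.1 (R 4.3.3) fitted log2(ppm + 1) of all 9 libraries without a block and with a mean trend, two-sided, adjusted by Benjamini-Hochberg. A fold change on this scale understates that of low genes. The planned unit was RPKM, replaced by the centred and scaled values for the conflict of names. The labels say that genotypes of 1 replicate were grown at the same time, so replicate numbers pair the libraries by label, although deviations of same-numbered libraries correlated at -0.68 to 0.31. The sheet of most regulated genes exchanges replicates 2 and 3 of the mutant, and in that order the correlations were -0.48 to 0.76. That order was used as an alternative block. Members and lists were chosen with earlier results of these data known, and the lists were written from general knowledge. Genes named were the members, up to 4 genes per list with the smallest adjusted p for ATF-4OE against WT, the 3 genes most like each member, and those said to be named later. Alternatives varied the pseudocount (4 or 0.25), filter, scaling, weights, block, libraries and names. Coordinates are from Ensembl release 115 of WBcel235. *hsp-90* shares 4 exon bases with a gene on the opposite strand. Software for tables and figures was pandas 2.3.3, numpy 2.4.6 and matplotlib 3.10.9 under Python 3.11.15.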

Additional observations from a re-analysis of the deposited data

How the results depend on the processing

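Of 399 member values under alternatives, 368 kept direction and side of the threshold, 4 passed where the original did not, 5 no longer passed and 22 changed sign, none of the last a call under the names used here. Under the RPKM sheet's own names each group mixes genotypes as named here, so those values describe the name conflict: no gene and no member passed in any comparison (0), and log2 values changed sign for *hsp-70* (1.18 against WT and 0.94 against the mutant, in ATF-4OE, and 0.24 for the mutant), *hsp-110* (0.49 and 0.21), *hsp-1* (0.03 for ATF-4OE against the mutant), *hsf-1* (-0.06 for the mutant against WT), and in ATF-4OE against WT *F11F1.1* (-0.30), *ahsa-1* (-0.07), *atfs-1* (-0.10), *cct-1* (-0.11), *cct-3* (-0.07), *cct-4* (-0.07), *cct-7* (-0.11), *dnj-12* (-0.02) and *unc-45* (-0.06), with -0.18 for *F11F1.1* and -0.01 for *unc-45* against the mutant. On centred and scaled values without a log, 2122 genes passed between ATF-4OE and WT in place of 4122, and 1284 in place of 3790 between ATF-4OE and the mutant, no member passed against WT (0), and signs changed for *hsp-70* (0.0042, mutant against WT), and, for ATF-4OE against the mutant, *hsp-1* (0.31), *hsf-1* (-0.0059) and *F11F1.1* (-0.0053). Library weights gave 2 members in place of 1 for ATF-4OE against WT, and log2 values of 0.01 for *hsp-110* there and 0.34 for *hsp-70* in the mutant against WT. Median-of-ratios scaling gave *hsp-1* 0.01 between ATF-4OE and the mutant, and a fit of only the 2 groups compared passed 3 genes in place of 6 between the mutant and WT.

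Leaving out 1 library at a time gave 1 to 2 members and 2556 to 4543 genes for ATF-4OE against WT, 1 to 3 members and 2312 to 4182 genes for ATF-4OE against the mutant, and 3 to 128 genes for the mutant against WT. The lowest of the first 2 gene counts came without ATF-4OE replicate 1 and the 128 without mutant replicate 1. Log2 values ranged from -0.29 to 0.09 for *hsp-110* in ATF-4OE against WT, from -0.62 to 0.27 for *hsp-70* and -0.01 to 0.13 for *hsf-1* in the mutant against WT, and from -0.68 to 0.22 for *hsp-70* and -0.12 to 0.05 for *hsp-1* in ATF-4OE against the mutant. The cause of these changes was not tested. With the replicate block the adjusted p was 0.0563 for *hsp-90* in ATF-4OE against WT, and 0.0636 for *hsp-6* and 0.035 for *hsp-60* in ATF-4OE against the mutant, and with mutant replicates 2 and 3 exchanged these were 0.0434, 0.0534 and 0.0148. The pairing thus changed no call of a member, and it ended calls of list genes, whose values stand beside them.

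With 3 replicates per genotype, the median SE of 0.17 on the log2 scale limited what was detectable, above all for *hsp-70*. Of 361 values of list genes that had passed, 108 no longer passed under an alternative. The calls of the co-chaperone and TRiC genes held in fewer alternatives than those of *hsp-90*, *hsp-6* and *hsp-60*. Other list genes were as stable as these members. The calls of *spg-7*, *C34C12.8* and *hsp-75* against the mutant held in 18 of 18 alternatives that kept the library names. That of *F11F1.1* against WT held in 17 of 18, as did those of *hsp-90* and *hsp-6*.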
